A study of Mus musculus with 10 samples.

Results

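Transthyretin and the vitamin D binding protein are plasma carrier proteins whose genes, Ttr and Gc, are read in glucagon-secreting alpha cells of the islet as well as in liver. The members were the rows of the deposited table with the symbol Ttr or Gc, 2 of 24475 genes, and both were found and passed the filter on low values. They were chosen as carrier proteins of alpha cells, with earlier results of these data known, and each was set beside Gcg, the proglucagon gene, in every library. The 10 libraries were made from polyA RNA of pancreatic islets of C57BL/6 mice, purified on a Histopaque density gradient. In 5 libraries the mice had received REGN1193, a blocking antibody against GCGR, the receptor of glucagon, and in the other 5 an isotype control antibody, so both groups were given an antibody. The labels give no age, sex, dose or duration. Nothing in them ties the libraries to separate animals, so all p-values measure the spread between these libraries, which may be technical. The comparison asks what blocking the receptor changes in islet transcripts, a state the labels link to alpha cell hyperplasia.

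Transthyretin circulates in blood and cerebrospinal fluid, where it carries thyroxine and holds retinol-binding protein 4 (Rbp4) with its retinol, which keeps that small protein from being lost through the kidney. The vitamin D binding protein belongs to the albumin family. It carries vitamin D metabolites, which kidney cells take up through the receptors megalin and cubilin, and it binds actin monomers set free by damaged cells. Both proteins are known mainly as products of hepatocytes, and both are among the transcripts by which alpha cells are told from beta cells.

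Gc (Entrez 14473) lies on chromosome 5 from 89417511 to 89457898 in GRCm38.p6, the build of the RefSeq gene table used for positions. Gcg (Entrez 14526) lies on chromosome 2 from 62474530 to 62483653. The 250 bases before the start of Gc, of Gcg and of Alb (albumin, a relative of Gc on the same chromosome) are shown to set a gene read at a high level in islets beside the hormone gene it was compared with and a family member that was nearly unread. They are RefSeq promoter windows of GRCm38.p6, chr5:89457899-89458148 on the minus strand, chr2:62483654-62483903 on the minus strand and chr5:90460620-90460869 on the plus strand. Capitals mark every match, on either strand, to one of the motifs searched, and the last base is the one before the annotated start.
Gc: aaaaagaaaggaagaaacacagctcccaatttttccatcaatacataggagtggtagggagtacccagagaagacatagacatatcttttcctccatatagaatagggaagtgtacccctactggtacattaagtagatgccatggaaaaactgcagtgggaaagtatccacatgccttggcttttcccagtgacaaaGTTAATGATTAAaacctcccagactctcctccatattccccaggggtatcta
Gcg: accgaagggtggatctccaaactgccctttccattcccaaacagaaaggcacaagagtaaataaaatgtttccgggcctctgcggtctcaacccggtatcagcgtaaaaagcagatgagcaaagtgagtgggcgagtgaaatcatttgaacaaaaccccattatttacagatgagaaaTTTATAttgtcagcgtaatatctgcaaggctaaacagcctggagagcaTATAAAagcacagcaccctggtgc
Alb: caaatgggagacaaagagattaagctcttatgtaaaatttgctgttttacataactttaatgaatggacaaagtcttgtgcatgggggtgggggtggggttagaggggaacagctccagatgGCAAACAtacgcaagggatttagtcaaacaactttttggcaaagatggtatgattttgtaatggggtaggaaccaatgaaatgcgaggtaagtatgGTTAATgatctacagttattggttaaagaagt
The motifs searched were TATAAA (the TATA box), TGTTTAC and TGTTTGC (forms bound by FOXA factors), the whole palindromic HNF1 site and its first part GTTAAT (bound by HNF1 factors), on both strands. The window of Gc held 1 match, GTTAAT, which begins 52 bases before the start. After the sequence was seen, the HNF1 site without its last base was searched as well. It overlaps that match and was found in Gc, as the longer run of capitals, and it occurs in 0.0609% of 32851 RefSeq promoter windows of the same length, against 6.43% for GTTAAT alone. Gcg held TATAAA on both strands, 24 and 72 bases before the start, a motif found in 12.4% of the windows. Alb held GTTAAT 32 bases before its start and, on the opposite strand, TGTTTGC, which 4.30% of the windows hold. TGTTTAC (3.17% of windows) and the whole HNF1 site (0.00913%) were in none of the 3 windows. A match is a run of letters and not a measured binding site.

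Depth, estimated from the steps of the low values, ran from 14.6 to 18.0 megareads in the antibody libraries and from 12.3 to 14.8 megareads in the isotype libraries. Levels are in RPKM, reads per kilobase of transcript per megaread, so levels of different genes can be compared per length. At these depths the level of Gc rested on an estimated 1251 to 5135 reads per library and that of Ttr on 8560.1 to 123285. Over all tested genes 33.5% of the fold changes were positive, 7.02% had an unadjusted limma p under 0.05, and the median was -0.07. At a limma adjusted p under 0.05, 0.394% were called higher and 0.0149% lower, so the short marker lists below would seldom hold a call. Groups did not overlap in 1.14% with the antibody libraries above and in 0.84% with them below. Markers of beta cells were high in every library, and all 11 had negative fold changes (median -0.43, none called), with sums of 199303 to 356573 RPKM in antibody and 298778 to 472822 RPKM in isotype libraries. Mafa, a beta cell transcription factor, was lower without overlap but not called (log2 difference -0.55, SE 0.13, adjusted p = 0.187, limma), and Glp1r, the GLP-1 receptor, was at -0.48 (SE 0.21). All 14 markers of exocrine acinar cells also had negative fold changes (median -0.57, none called), with overlapping sums of 4555 to 15575 RPKM in antibody and 3484 to 20458 RPKM in isotype libraries. Ptf1a, an acinar transcription factor, was lower without overlap, at 0.515 against 3.14 RPKM on average (log2 difference -1.64, SE 0.35, adjusted p = 0.111, limma), and Ctrb1, chymotrypsinogen, was at -0.93 (SE 0.38). Of the 9 tested ductal markers 4 were positive and none was called, but 5 had an unadjusted limma p under 0.05, against 7.02% of all tested genes. Tspan8 was higher without overlap, at 0.71 (SE 0.14, adjusted p = 0.0808, limma). Krt18 was lower without overlap, at -0.72 (SE 0.21). In other settings Tspan8 was called in 5 of 21, Ptf1a in 2 of 20 and Mafa in 1 of 21 (lowest adjusted p = 0.00209, 0.0135 and 0.0226, limma). No marker was called among the 8 endothelial, 9 macrophage and 8 mesenchymal genes tested. Log2 differences were -0.36 for Esam, -0.33 for Flt1, 0.21 for C1qa, 0.46 for Itgam, -0.44 for Pdgfrb and 0.36 for Pdgfra. The part of these cells in the changes of Ttr, Gc and Gcg was not tested. In islets as a whole, fewer cells of a type and less RNA per cell cannot be told apart.

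Ttr (Entrez 22139, chromosome 18 from 20664209 to 20674326 in GRCm38.p6) rose 6.82-fold with the receptor-blocking antibody. Its level in antibody replicates 1 to 5 was 4462, 7071, 6293, 5386 and 3570.1 RPKM. In isotype replicates 6 to 10 it was 696.5, 874, 1014, 737 and 568 RPKM. The groups were far apart, with the lowest antibody library (replicate 5) well above the highest isotype library (replicate 8). The means were 5356 ± 1397 and 778 ± 171 RPKM (SD, n = 5 each), a difference of 2.77 on the log2 scale (limma SE 0.22, adjusted p = 0.00023 over 13450 tested genes). Over all tested genes 0.394% were called higher by this rule and 0.0149% lower. In the order of all genes by level, Ttr stood between rank 43 and 76 in the isotype libraries and between rank 10 and 18 in the antibody libraries. Its share of the summed RPKM of a library rose from 0.0952% ± 0.0153 to 0.677% ± 0.145 (SD, n = 5 each; exact permutation p = 0.00794, two-sided, the smallest that 5 against 5 allows).

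Gc rose 2.08-fold, a smaller change at a far lower level. Its level in antibody replicates 1 to 5 was 137, 194, 175, 112 and 147 RPKM. In isotype replicates 6 to 10 it was 55.3, 92.4, 85.4, 52.4 and 84.1 RPKM. The groups did not overlap, but the lowest antibody library (replicate 4) and the highest isotype library (replicate 7) lay close together. Groups that did not overlap were found in 1.14% of all tested genes with the antibody libraries above and in 0.84% with them below. The means were 153 ± 32.0 and 73.9 ± 18.6 RPKM (SD, n = 5 each), a difference of 1.06 on the log2 scale (limma SE 0.20, adjusted p = 0.0484). That call lies at the threshold, and it was lost without any single library other than antibody replicate 4 (highest adjusted p = 0.167, limma), while the log2 fold change stayed between 0.94 and 1.16. As a share of summed RPKM Gc went from 0.00917% ± 0.00249 to 0.0195% ± 0.00368 (SD, n = 5 each; exact permutation p = 0.00794, two-sided).

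**Figure D1:**
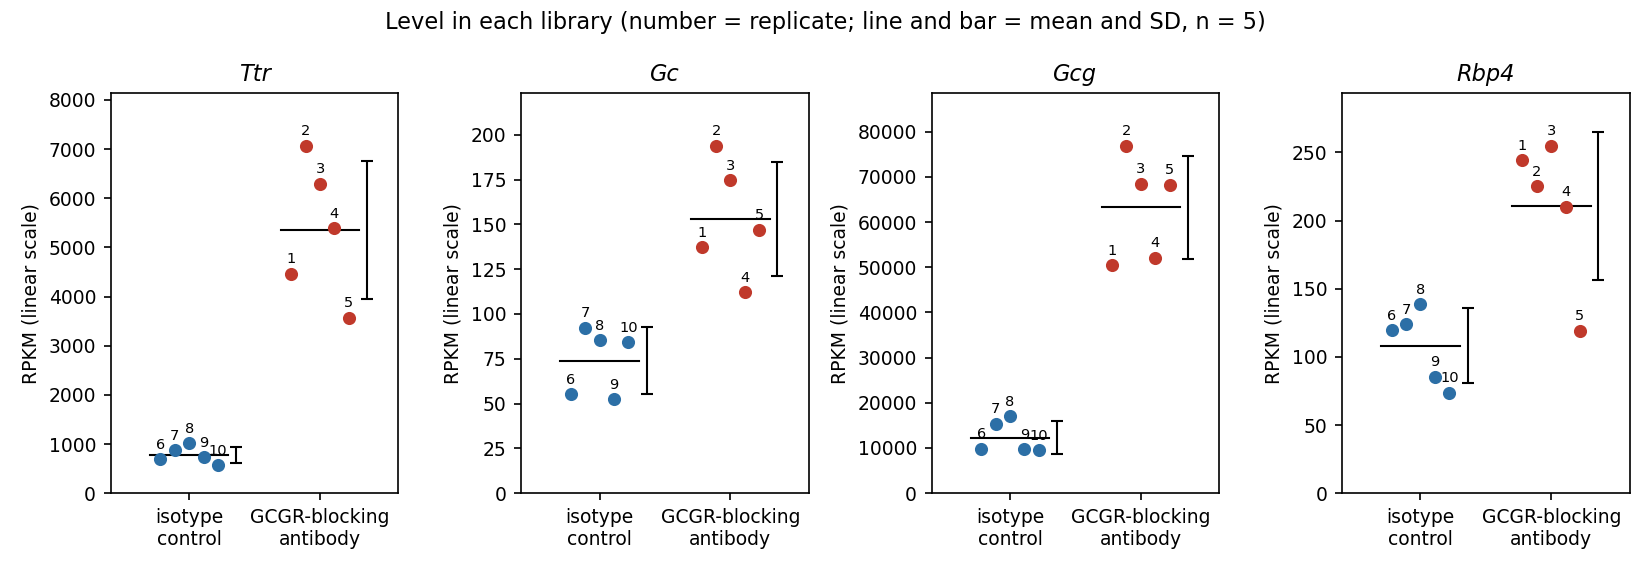
Level of Ttr, Gc, Gcg and Rbp4 in RPKM (linear axes from 0) in each of the 5 isotype and 5 antibody libraries; each point is a library with its replicate number, lines and bars are the mean and SD. Ttr, Gc and Gcg do not overlap between groups, while antibody replicate 5 lies within the isotype range for Rbp4 (119 RPKM).

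The proglucagon gene gave the scale for these changes. Gcg, the source of glucagon, was at 50503, 76928, 68494, 52104 and 68243 RPKM in antibody replicates 1 to 5. Its level in isotype replicates 6 to 10 was 9887, 15377, 17038, 9684 and 9513 RPKM. The groups were wide apart. Gcg rose by 2.39 on the log2 scale (limma SE 0.27, adjusted p = 0.00174). Its change was 1.41 after quantile normalization, and with every gene kept in the fit its adjusted p was 0.784 (limma). The ratio of 2 genes within a library does not depend on how that library was scaled, so each carrier gene was set against Gcg library by library. The 6 ratios below were compared by a two-sided exact permutation test, with p-values adjusted over the 6, and their 95% intervals come from inverting that test.

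Ttr relative to Gcg was not shown to differ between the groups. It stood at 8.84%, 9.19%, 9.19%, 10.3% and 5.23% of the Gcg level in antibody replicates 1 to 5. In isotype replicates 6 to 10 it stood at 7.04%, 5.68%, 5.95%, 7.61% and 5.97%. The 4 antibody libraries other than replicate 5 lay above all isotype libraries, and replicate 5 lay below them all. The log2 ratio was higher by 0.38 with the antibody (95% interval -0.10 to 0.74; exact permutation adjusted p = 0.0857), so a difference was not shown, and a rise of the ratio by up to 0.74 lies within the interval. Antibody replicate 5 decided this value: without it the difference was 0.55 (exact permutation adjusted p = 0.0190).

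Gc relative to Gcg was lower in every antibody library than in any isotype library. It stood at 0.272%, 0.252%, 0.255%, 0.216% and 0.215% of the Gcg level in antibody replicates 1 to 5. In isotype replicates 6 to 10 it stood at 0.560%, 0.601%, 0.501%, 0.541% and 0.884%. Isotype replicate 10 was the highest. The log2 ratio fell by 1.33 (95% interval -1.70 to -1.0; exact permutation adjusted p = 0.0119), a ratio of 0.399 relative to the isotype group. The difference between the 2 carriers was tested directly as Ttr over Gc, and that log2 ratio rose by 1.71 (95% interval 1.16 to 2.34; exact permutation adjusted p = 0.0119). Per length, the level of Ttr was 6.75 to 14.1 times that of Gc in isotype libraries and 24.3 to 48.0 times in antibody libraries.

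**Figure D2:**
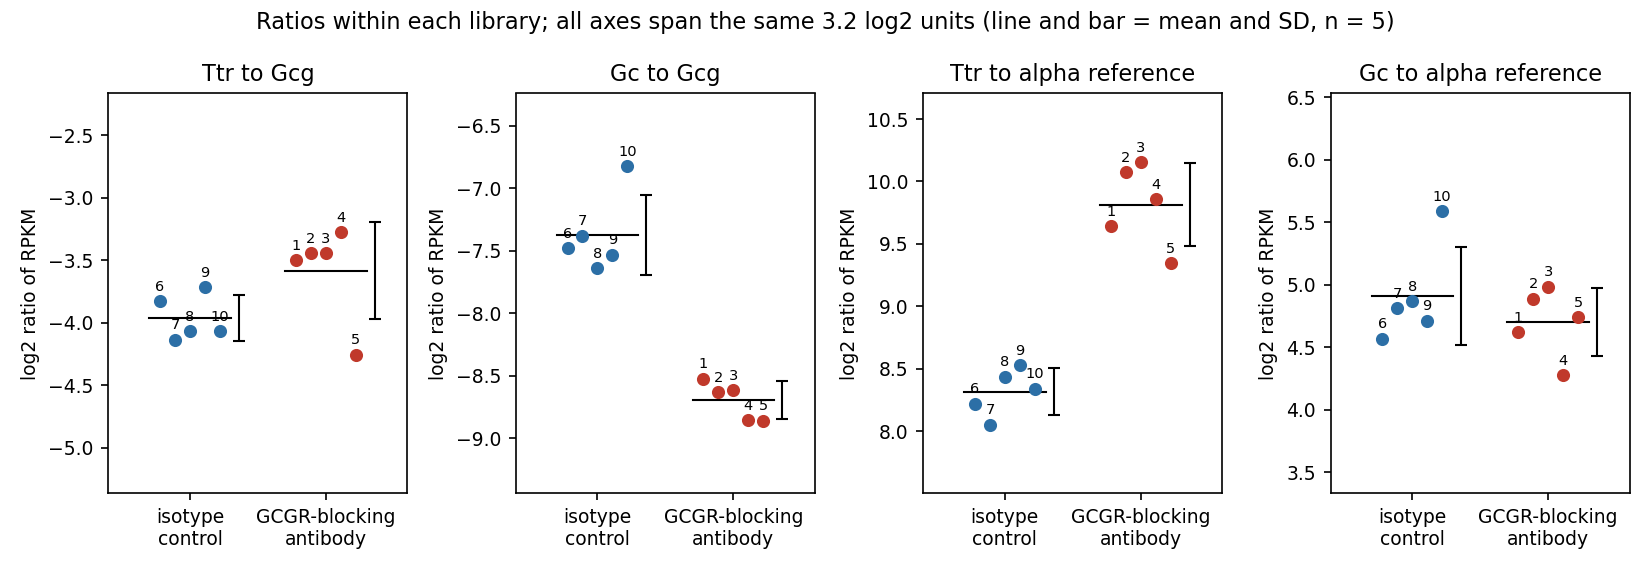
Log2 ratio of RPKM within each library for Ttr and Gc over Gcg and over the mean of 5 alpha cell genes; points are libraries with replicate numbers, lines and bars the mean and SD (n = 5), and all axes span the same range. Ttr over Gcg overlaps between groups and Gc over Gcg does not, while over the other alpha cell genes Ttr is separated and Gc is not.

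A set of 5 further alpha cell genes gave a second scale: the transcription factor genes Irx1, Irx2 and Pou3f4, the kinase gene Wnk3 and Smarca1, an ATPase of chromatin remodelling. Of these 5 tested genes, 4 were called higher and none lower (0.394% and 0.0149% of all tested genes were). Their median log2 fold change was 1.16 where that of all tested genes was -0.07. Wnk3 rose by 1.39 (SE 0.18), Irx1 by 1.20 (SE 0.23), Irx2 by 1.16 (SE 0.17) and Smarca1 by 0.99 (SE 0.13) on the log2 scale (limma adjusted p from 0.00393 for Wnk3 to 0.0492 for Irx1). Pou3f4, a POU factor of alpha cells, was at 0.61 (SE 0.19, limma adjusted p = 0.418). Irx1 lost its call without any 1 antibody library, without isotype replicate 6, 9 or 10, without antibody replicate 5 and isotype replicate 10 together, with every gene kept in the fit, with a pseudocount of 0.1, with trimmed mean scaling and without a variance trend (highest adjusted p = 0.17, limma). The list was chosen with earlier results of these data known and is no independent evidence of direction.

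Ttr was higher relative to these genes with the antibody, and for Gc a difference was not shown. Their mean log2 level, taken like the ratios without a pseudocount, rose by 1.27, from 1.26 ± 0.38 to 2.53 ± 0.11 log2 RPKM (SD, n = 5 each; exact permutation p = 0.00794). The list was chosen with earlier results known, so this p is no independent evidence. Pou3f4 lay near the floor, at 0.439 RPKM on average in the isotype group. Relative to the mean of the 5 genes, Gc differed by -0.21 between the groups (95% interval -0.71 to 0.22; exact permutation adjusted p = 0.421). The groups overlapped throughout, except that isotype replicate 10 stood above all other libraries. Without it the difference was -0.040 (exact permutation adjusted p = 0.825). The interval still allows a difference of 0.22 upward or 0.71 downward, so equal change is not shown. In the settings other than leaving out 1 library, the difference for Gc ranged from -0.23 to -0.01. Ttr was higher relative to the same mean by 1.498 (95% interval 1.11 to 1.86; exact permutation adjusted p = 0.0119), in 5 of 5 antibody libraries against every isotype library.

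**Figure D3:**
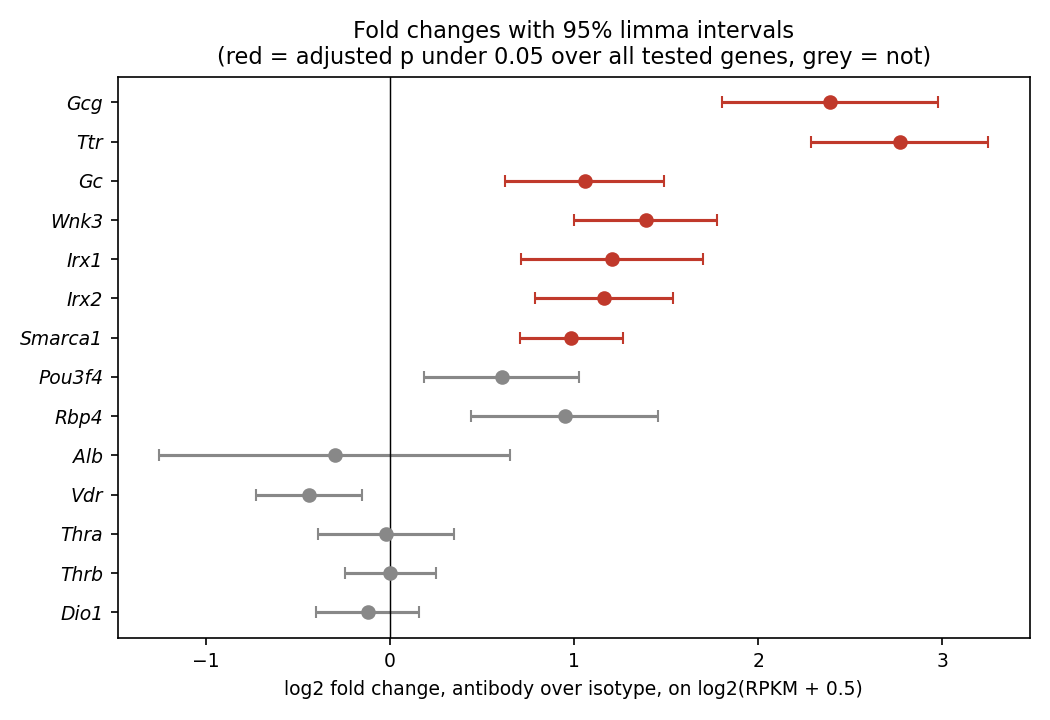
Log2 fold change, antibody over isotype, on log2(RPKM + 0.5) with 95% limma intervals for Gcg, Ttr, Gc, 5 alpha cell genes and genes of the carriers' pathways; red marks an adjusted p under the threshold over all tested genes. Ttr (2.77) and Gcg (2.39) stand to the right, Gc (1.06) lies among the alpha cell genes, and the receptor genes Vdr, Thra and Thrb lie below or near 0.

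The genes with profiles most like each carrier are given as a description. Likeness was the root mean square difference between log2 profiles over the 10 libraries, each centred on its own mean, among 8383 other genes averaging 5 RPKM or more. The gene nearest to Ttr was Gcg (0.33), followed by Gpx3, a secreted glutathione peroxidase (0.43), Gfra3, a subunit of the artemin receptor (0.48), Eef1a2, a translation elongation factor (0.54), and Serpine2, a protease inhibitor (0.65). All 5 were called higher with the antibody, where 0.394% of all tested genes were. The genes near Ttr and near Gc were picked by profile in these same libraries, so their calls are no independent evidence. Eef1a2 lost its call when antibody replicate 2, antibody replicate 3 or isotype replicate 9 was left out. It also did with every gene kept, and without antibody replicate 5 and isotype replicate 10 together (highest adjusted p over these settings = 0.0592, limma). For Gc the nearest were Ehf, an ETS transcription factor (0.19), Serping1, the C1 inhibitor of complement (0.22), Etv1, another ETS factor (0.26), Gng2, a G protein subunit (0.26), and Sgce, a sarcoglycan (0.26). Of these Sgce was called higher (by 1.02 on the log2 scale, SE 0.16, adjusted p = 0.0138, limma) and the other 4 were not (limma adjusted p from 0.109 to 0.288). With array weights all 4 were called, and so were Serping1 and Gng2 without antibody replicate 4. Sgce lost its call when any of the same 3 libraries was left out (highest adjusted p = 0.0557, limma). In the order of likeness to Gc, Gcg stood at rank 4907 of 8383 (0.70), since the measure counts the size of a change as well as its direction. In the reverse orders, Gc stood at rank 13 of 8383 from Gcg (0.70) and at rank 17 from Ttr (0.92).

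No gene listed with transthyretin passed the test in the main fit, though Rbp4 passed in 3 of 21 other settings. The list of thyroid hormone and retinol handling held 36 genes, of which 15 fell under the filter on low values. Of the 21 tested, none was called in either direction (7 positive and 14 negative fold changes, median -0.06 against -0.07 over all tested genes), and 3 had an unadjusted limma p under 0.05. Over all tested genes 33.5% were positive and 7.02% had such a p. Since 0.394% of all tested genes were called higher and 0.0149% lower, 21 genes would seldom hold a call. Rbp4, the retinol carrier that transthyretin holds in plasma, was at 244, 225, 255, 210.02 and 119 RPKM in antibody replicates 1 to 5. Its level in isotype replicates 6 to 10 was 120, 124, 138, 85.5 and 73.8 RPKM. Antibody replicate 5 lay within the isotype range and the other 4 above it. The difference was 0.95 on the log2 scale (SE 0.23, adjusted p = 0.187, limma). Without antibody replicate 5 it was 1.14 (adjusted p = 0.0247, limma), and the lowest adjusted p over all other settings was 0.00705 (limma). The log2 ratio of Ttr to Rbp4 rose by 1.82 (95% interval 1.41 to 2.15; exact permutation adjusted p = 0.0119). Ttr stood at 5.82 to 8.62 times the level of Rbp4 in isotype libraries and at 18.3 to 31.4 times in antibody libraries. Rbp4 is also a marker of somatostatin-secreting delta cells in mouse islets.

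The receiving side of both thyroid hormone and retinol was measured without a call. Thyroid hormone receptor genes stood at 11.2 ± 1.90 against 11.5 ± 2.67 RPKM for Thra and at 3.14 ± 0.298 against 3.14 ± 0.375 RPKM for Thrb (antibody against isotype, SD, n = 5 each). Their limma log2 fold changes were -0.02 (SE 0.17) and 0.00 (SE 0.11), and both changed sign in some other settings. Dio1, the deiodinase that makes active thyroid hormone from thyroxine, ranged from 41.8 to 53.7 RPKM with the antibody and from 40.7 to 63.0 RPKM in the isotype group (a log2 difference of -0.12, SE 0.13). Serpina7, the thyroxine-binding globulin, was at 14.3 and 12.1 RPKM on average. Stra6, the membrane receptor of retinol-binding protein, was under the filter with 0.0474 and 0.0161 RPKM. The smallest limma p besides Rbp4 belonged to Rdh11 (log2 fold change -0.30, SE 0.11) and Rdh10 (-0.78, SE 0.30), which encode retinol dehydrogenases (limma adjusted p = 0.533 and 0.603).

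Genes around the vitamin D binding protein gave no call either. Of 23 genes of vitamin D and actin handling, 9 were under the filter. Of the 14 tested, 7 fold changes were positive and 7 negative (median -0.10), and 3 had an unadjusted limma p under 0.05 (33.5% and 7.02% of all tested genes were positive and had such a p). With 0.394% of all tested genes called higher and 0.0149% lower, 14 genes would seldom hold a call. Vdr, the nuclear vitamin D receptor, was at 22.3, 23.2, 27.1, 25.7 and 34.4 RPKM in antibody replicates 1 to 5. Its level in isotype replicates 6 to 10 was 32.3, 37.1, 31.7, 41.3 and 37.0 RPKM. Only antibody replicate 5 reached the isotype range. The difference of -0.44 on the log2 scale missed the threshold (SE 0.13, adjusted p = 0.353, limma). Of the other settings tried it passed with array weights alone (adjusted p = 0.0297, limma). Casr, the calcium-sensing receptor, was at -0.34 (SE 0.11, limma adjusted p = 0.455; 0.0431 with array weights) and Gsn, gelsolin, which severs actin filaments and shares the clearing of actin from plasma with Gc, at -0.40 (SE 0.15, limma adjusted p = 0.586). The enzymes that activate and break down the hormone were near the floor, with Cyp27b1 at 0.429 and 0.465 RPKM and Cyp24a1 at 0.0341 and 0.0226 RPKM. Lrp2 (megalin, 0.0529 and 0.0703 RPKM) and Cubn (cubilin, 0.0305 and 0.0363 RPKM), the uptake receptors, were as low.

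Gc was the one member of the albumin family at a high level in islets. Alb, albumin, was at 0.401 to 0.971 RPKM in antibody libraries and at 0.27 to 4.11 RPKM in isotype libraries, with isotype replicate 9 the highest. The difference was -0.30 on the log2 scale (SE 0.44, adjusted p = 0.925, limma), and 0.14 without isotype replicate 9. Afp, alpha-fetoprotein, averaged 0.032 and 0.112 RPKM, and Afm, afamin, 0.0578 and 0.0866 RPKM, both under the filter. Alb lies 1003 kb from Gc on chromosome 5.

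Markers of hepatocytes were low. Of 15 hepatocyte genes, 9 were under the filter and none of the 6 tested was called (limma; 2 of the 6 had an unadjusted p under 0.05, against 7.02% of all tested genes). Their summed level was 22.4 to 31.3 RPKM in antibody libraries and 13.6 to 33.0 RPKM in isotype libraries. Tat had the highest mean of the list in both groups, 11.2 RPKM with the antibody and 14.1 RPKM in the isotype group. No marker was at 0 in all libraries, but Cps1, Ahsg, Serpina1c and Hpd were each at 0 in at least 1 library of both groups. Alb reached at most 4.11 RPKM, where the lowest Ttr level was 568 RPKM. Apoa2, an apolipoprotein of high-density lipoprotein, ranged from 9.38 to 11.9 RPKM with the antibody and from 2.73 to 8.36 RPKM in the isotype group, a log2 difference of 1.11 (SE 0.22, adjusted p = 0.0719, limma). It passed after median centring, quantile normalization and trimmed mean scaling (highest adjusted p = 0.0310, limma), with array weights and without isotype replicate 9. Fgb, a fibrinogen chain, was at 2.58 and 1.12 RPKM on average (log2 difference 0.94, SE 0.36, adjusted p = 0.586, limma).

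Of 59 plasma protein genes other than Ttr and Gc, 31 were tested, and 2 of these rose and none fell (0.394% and 0.0149% of all tested genes did). There were 21 positive and 10 negative fold changes (median 0.23, against 33.5% positive and a median of -0.07 over all tested genes), and 10 had an unadjusted limma p under 0.05 (7.02% of all tested genes did). Of the 31, 4 were higher without overlap and none lower (1.14% and 0.84% of all tested genes were). Over the other settings 1 to 5 were called higher, and 1 was called lower with array weights or without isotype replicate 6. Clu, clusterin, a chaperone of plasma, averaged 482 RPKM with the antibody and 1487 RPKM in the isotype group, a log2 difference of -1.47 that missed the threshold (SE 0.39, adjusted p = 0.247, limma). Serpind1, heparin cofactor II, an inhibitor of thrombin, was at 1.70, 2.90, 3.57, 1.84 and 2.52 RPKM in antibody replicates 1 to 5. Its level in isotype replicates 6 to 10 was 0.324, 0.848, 0.647, 0.215 and 0.355 RPKM. The groups did not overlap, and Serpind1 rose by 1.62 on the log2 scale (SE 0.22, adjusted p = 0.00633, limma), which understates the change since the isotype mean lies near the pseudocount. Agt, angiotensinogen, the precursor of angiotensin, rose from 11.1 ± 2.78 to 22.3 ± 1.31 RPKM (SD, n = 5 each), a log2 difference of 1.01 (SE 0.17, adjusted p = 0.0199, limma). Its groups did not overlap (21.0 to 24.2 against 6.72 to 14.4 RPKM), and it lost its call without antibody replicate 1, antibody replicate 2, antibody replicate 3, isotype replicate 7 or isotype replicate 9, and with every gene kept (highest adjusted p = 0.0751, limma). Serping1 averaged 83.0 ± 31.9 RPKM with the antibody and 39.3 ± 8.77 RPKM in the isotype group (SD, n = 5 each) and missed the threshold (adjusted p = 0.216, limma). Apoe, apolipoprotein E, averaged 101 and 98.6 RPKM and was not called.

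**Figure D4:**
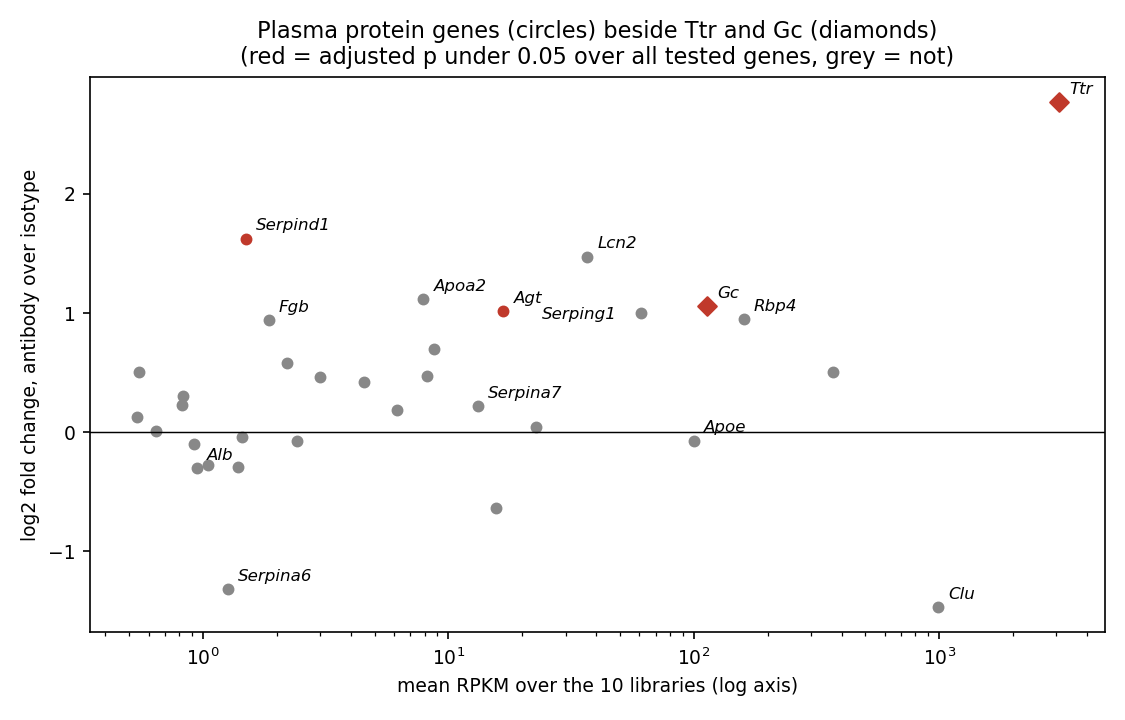
Log2 fold change, antibody over isotype, against mean RPKM (log axis) for 31 tested plasma protein genes (circles) with Ttr and Gc (diamonds); red marks genes called higher. Ttr lies apart at the upper right (2.77), and Serpind1 and Agt are the called circles.

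The nearest tested genes along the chromosome were measured without a call. They lay up to 5513 kb from Ttr and up to 1145 kb from Gc. Over all tested genes 0.394% were called higher and 0.0149% lower, so a set of 10 genes would seldom hold a call. Of the 5 nearest tested genes on each side of Ttr, none of 10 was called, with log2 fold changes from -0.41 for Dsg2, a desmosomal cadherin, to 0.14 for Kctd1. B4galt6, a galactosyltransferase 10.3 kb from Ttr, was at 0.02 (SE 0.10). Of the 10 tested neighbours of Gc, none was called, with values from -0.30 for Gm9958 to 0.06 for Ankrd17. Slc4a4, a bicarbonate cotransporter 178 kb away, was at -0.06 (SE 0.22).

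**Figure D5:**
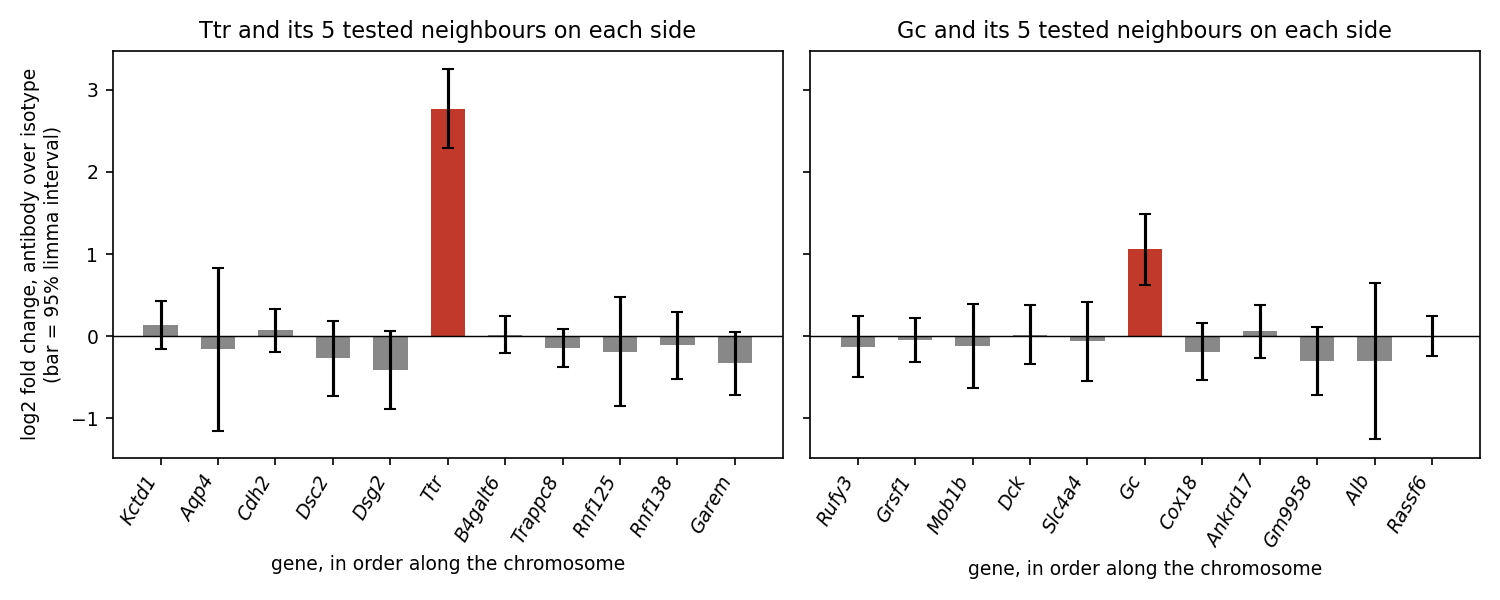
Log2 fold change with 95% limma intervals (bars) of Ttr and Gc (red) and of the 5 nearest tested genes on each side (grey), in order along the chromosome. The neighbours range from -0.41 to 0.14 around Ttr and from -0.30 to 0.06 around Gc.

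Antibody replicate 5, with the lowest Ttr, also had the lowest levels of its group for Sst, the delta cell hormone somatostatin (3572 RPKM against 5088 to 9441 in the other 4), Ppy, pancreatic polypeptide (2652 against 3906 to 7104), Pyy, peptide YY (1459.8 against 3015 to 5797), and Rbp4. The insulin genes were lowest there as well, Ins1 at 38064 RPKM against 57536 to 80796 and Ins2 at 143596 RPKM against 179363 to 238545, as was the beta marker sum (199303 against 281140 to 356573). Gcg in the same library was at 68243 RPKM, the middle value of the group. Its acinar marker sum was the highest of the group at 15575 RPKM, against 4555 to 10225 in the other 4. Between the groups Sst differed by 0.92 (SE 0.33) and Ppy by 0.72 (SE 0.28) on the log2 scale, neither past the threshold (limma adjusted p = 0.544 and 0.616). Of the 4 tested delta cell markers all fold changes were positive (median 0.70) and all 4 had an unadjusted limma p under 0.05 (7.02% of all tested genes did), but none was called. The part of these cells in the level of Ttr was not tested.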

How the data were processed

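RNA sequencing of islets gave 10 libraries, 5 per antibody group. The authors deposited 1 table of RPKM values for 24475 genes. FastQC, CASAVA 1.8.2, mm10 and GRCm38 appear in the submitters' processing notes without a stated role. Aligner, counter and gene models: not given in the sources used here. Depth was estimated from low values of 15621 genes with 1 transcript length in GENCODE M21. Between 71.0% and 75.8% of those values lay within 0.1 of a whole read, where 20% would without a step. The step was fitted to the same values, and no count model was run.

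The 13450 genes averaging 0.5 RPKM or more were compared as log2(RPKM + 0.5), which understates changes of low genes, with limma 3.58.1 in R 4.3.3 (variance trend, Benjamini-Hochberg adjustment over all tested genes, threshold 0.05). Ratios and shares were compared by two-sided exact permutation over 252 assignments of the libraries (Python 3.11.15, numpy 2.4.6, scipy 1.17.1). Ratios were taken on log2 RPKM without a pseudocount, and their intervals were read in steps of 0.01.

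The members and lists were chosen with earlier results of these data known. Some alpha cell genes are not reported here and enter no list or mean. Named were Ttr, Gc, Gcg, Rbp4, the alpha cell and albumin family genes, receptors and enzymes of each pathway, called list members or else the 3 with the smallest p, the 5 nearest profiles and neighbours, and the 2 markers of each other cell type with the smallest p. Serpina7, Apoe, Clu, Tat, the insulin genes and the hepatocyte genes at 0 were chosen after their values were seen. RNA was purified with the miRNeasy kit and libraries made with Nextera XT, which does not mark strand, per the labels' protocols, so overlapping and antisense genes cannot be told apart. Alternatives were other pseudocounts, filters, scalings and variance settings, array weights and leaving out each library. The fit with neither antibody replicate 5 nor isotype replicate 10, and the HNF1 site without its last base, were chosen after seeing the data.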

Additional observations from a re-analysis of the deposited data

Results flagged for a closer look

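Within groups of 5 libraries, 146 sets of values were examined for a library whose gap to its nearest neighbour took more than 0.71 of the group's range. Of these 6 passed, where chance gives about 1 in 20, so the number is no more than chance gives. In antibody replicate 5 Rbp4 was at 119 RPKM against 210.02 to 255 in the other 4. The same library had the lowest log2 ratio of Ttr to Gcg, -4.26 against -3.50 to -3.27. Isotype replicate 10 stood apart in 3 chromosomal neighbours: Dsc2, a desmosomal cadherin, at 7.76 RPKM against 3.03 to 3.83, Rnf125, a ubiquitin ligase, at 1.92 RPKM against 0.544 to 0.808, and Dck, deoxycytidine kinase, at 3.99 RPKM against 2.45 to 2.72. Krt18, a ductal keratin, was lowest in antibody replicate 1, at 166 RPKM against 217 to 241.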

How the results depend on the processing

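Ttr kept its direction and its call in all 21 other settings, with log2 fold changes from 2.64 to 2.91 (limma adjusted p up to 0.00343). For Gc, antibody minus isotype, the direction held in all 21 and the call was lost in 13. The log2 fold change was 1.06 without a filter on low values (limma adjusted p = 0.0974), 1.06 with a minimum mean of 5 RPKM (0.0597), 1.06 without a variance trend (0.0531) and 1.12 without antibody replicate 5 and isotype replicate 10 together (0.118), the last setting chosen after seeing the data. With 1 library left out it ranged from 0.94 to 1.16. It stayed called with pseudocounts of 0.1 and 1, each of the 3 scalings, robust variance, array weights and without antibody replicate 4. The difference in the ratio of Ttr to Gcg ranged from 0.30 to 0.55 with 1 library left out and was 0.52 without both libraries (exact permutation adjusted p = 0.0343). The other 5 ratios and both shares kept direction and side of the threshold in every setting. Against 53 genes called higher, array weights gave 121 and a 5 RPKM minimum gave 23. With 1 library left out the number was 31 to 50, with 32 without antibody replicate 2 or antibody replicate 3 and 31 without isotype replicate 9. The number called lower was 1 without a filter, 0 with a minimum mean of 5 RPKM, 1 without a variance trend, 5 with quantile normalization, 61 with array weights, 5 without both libraries, and 0 to 20 with 1 library left out (20 without isotype replicate 6), against 2. Among genes without a call, Thra reversed to 0.055 with median centring, 0.047 with quantile normalization and 0.039 with trimmed mean scaling, and ranged from -0.15 to 0.083 with 1 library left out. Thrb reversed to -0.014 with array weights and to -0.013 without both libraries, and ranged from -0.028 to 0.060 with 1 library left out. Without both libraries Serpind1 (adjusted p = 0.0513, limma), Eef1a2 (0.0513) and Sgce (0.0799) lost their calls. With 1 library left out Alb ranged from -0.50 to 0.14. The median log2 fold change of all tested genes lay between -0.08 and 0.01 in all settings. Of the 5 nearest profiles, 4 for Ttr and 3 for Gc were shared when the minimum mean was 0.5 RPKM. The cause of these changes was not tested. No paired analysis was possible because the antibody libraries are numbered 1 to 5 and the isotype libraries 6 to 10 and share no number.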
